A study of Mus musculus with 16 samples.

Results

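Wildtype spermatocytes were compared with wildtype spermatogonia to describe how the transcripts of male mouse germ cells change between the mitotic cells of the pup testis and the meiotic cells of the adult testis. The comparison used 5 of the 16 libraries of the series, 3 of spermatocytes and 2 of spermatogonia. A gene entered it where its FPKM was 1 or more in at least 2 of these 5 libraries, and 13508 of the 22293 genes with a row of their own did. FPKM is a level of RNA scaled to the length of the transcript and to the mapped fragments of the library. Per the labels, the spermatogonia were isolated from pups of 6 to 7 days after birth and the spermatocytes from adults, all of them male mice of genotype WT and strain C57;ICR. The other 11 libraries came from mice lacking miR-202 and from cultured stem cells. Cell type and age therefore changed together and cannot be told apart. The replicates are called biological in the design text, which names neither the animals nor any pooling, and the way the cells were purified is not given in the sources used here. Accordingly, p-values measure the spread between libraries within a group, estimated over all 16 libraries of the series.

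Spermatogonia divide by mitosis, and a part of them keeps the stem cell pool while the rest differentiates under retinoic acid and enters meiosis. Spermatocytes then copy their DNA, pair and recombine homologous chromosomes along the synaptonemal complex and silence the X and Y chromosomes in the sex body, while many transcripts for the acrosome and flagellum are made ahead of use and stored bound to protein. In the mouse pup of the labelled age the tubules hold spermatogonia and Sertoli cells, and the adult testis also holds spermatids.

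The libraries of a cell type were alike and the cell types far apart. Pearson correlations across genes, on log2(FPKM + 1), were at least 0.993 within a cell type and 0.549 to 0.583 between them. Spermatogonia had 11913 and 12040 rows at 1 FPKM or more, and spermatocytes 9681 to 10061. The 100 most abundant rows held 15.3% and 16.1% of the FPKM of the spermatogonia libraries and 22.2% to 22.5% of that of the spermatocyte libraries.

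Defining markers followed the cell type labels, with RNA of other cells beside them. Zbtb16, a transcription factor of undifferentiated spermatogonia, stood at 13.6 and 16.3 FPKM in spermatogonia and at 0.125, 0.225 and 0.125 in spermatocytes. Piwil1, the piRNA-binding protein of pachytene spermatocytes, stood at 1.24 and 1.15 FPKM in spermatogonia and at 228, 270.0 and 163 in spermatocytes. Neither gene overlapped between the groups, which was so for 93.5% of all genes tested. The spermatogonia libraries also carried genes of Sertoli cells, which nurse the germ cells in the tubule: the 26 genes of that list summed to 3526 and 2531 FPKM there and to 46.7, 104 and 53.9 in spermatocytes, and 0 of the 26 were listed at 0 in either spermatogonia library. Clu, an abundant Sertoli cell secretion, stood at 984 and 647 FPKM against 10.4, 27.9 and 11.4. The 26 genes of fibroblasts and matrix summed to 1928 and 2125 FPKM in spermatogonia and to 18.2 to 21.8 in spermatocytes. The 12 genes of Leydig cells, which make testosterone, summed to 329 and 263 FPKM in spermatogonia and to 13.9, 18.1 and 59.4 in spermatocytes, so spermatocyte replicate 3 held the most of them. The spermatid list summed to 47.9 and 53.6 FPKM in spermatogonia and to 5340, 7597 and 5628 in spermatocytes, highest in spermatocyte replicate 2. The part of these other cells in the changes below was not tested, and in bulk RNA fewer cells of a type and less RNA per cell cannot be told apart.

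**Figure D1:**
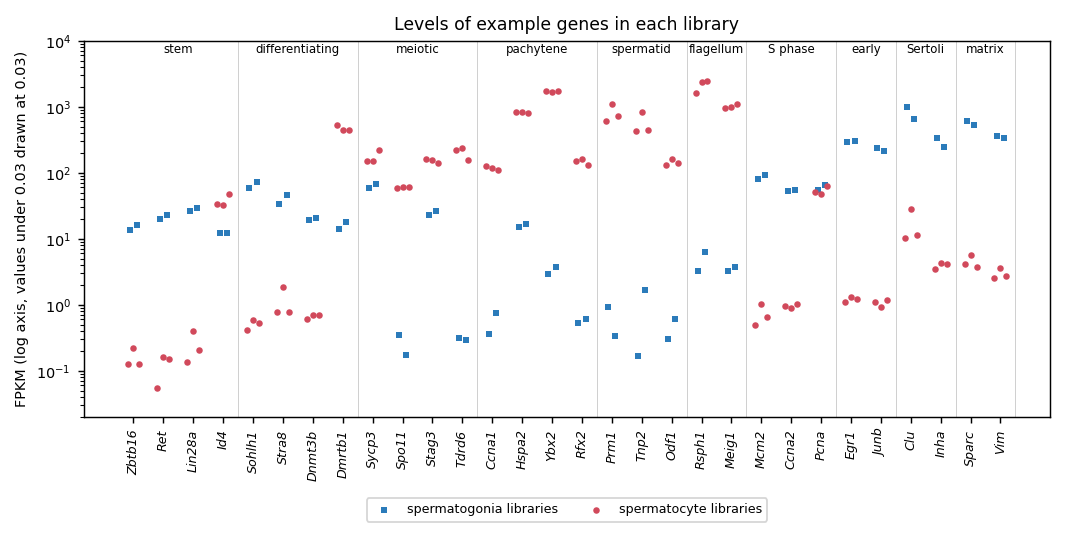
FPKM of 30 genes in each library on a log axis, grouped by the role for which they are listed, with squares for the 2 spermatogonia libraries, circles for the 3 spermatocyte libraries and values under 0.03 drawn at 0.03. The groups do not overlap for any gene shown except Pcna, while 93.5% of all genes tested show no overlap. Id4 and Dmrtb1 stand apart from the other spermatogonial genes by being higher in spermatocytes.

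Most of the genes tested changed, and more of them fell than rose. With limma on log2(FPKM + 1), 3631 of 13508 genes rose in spermatocytes (26.9%) and 6195 fell (45.9%), where rose and fell mean an adjusted p under 0.05 and a change of at least 2-fold on that scale, which understates the change of genes near 1 FPKM. The remaining 3682 did neither. In 12635 genes (93.5%) the libraries of the groups did not overlap. Changes of at least 32-fold were mostly upward, with 514 genes that rose and 201 that fell that far. There were 618 genes under 0.1 FPKM in both spermatogonia libraries and at 1 or more in every spermatocyte library, and 786 with the reverse pattern.

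The balance between rises and falls depended on the scale set between libraries. On the deposited FPKM the median change of all genes tested was -0.74 on the log2 scale. Median-ratio scaling, which centres the ratios of genes between libraries, moved it by 0.74 and gave 4886 rises (36.2%) and 4715 falls (34.9%). Rises then made up 50.9% of the calls in place of 37.0%, and 45.3% with quantile normalization, which moved the median by 0.36. Under all 3 scalings 3461 genes rose and 4242 fell. The values below are on the deposited scale, and a change should be read against the median of -0.74.

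**Figure D2:**
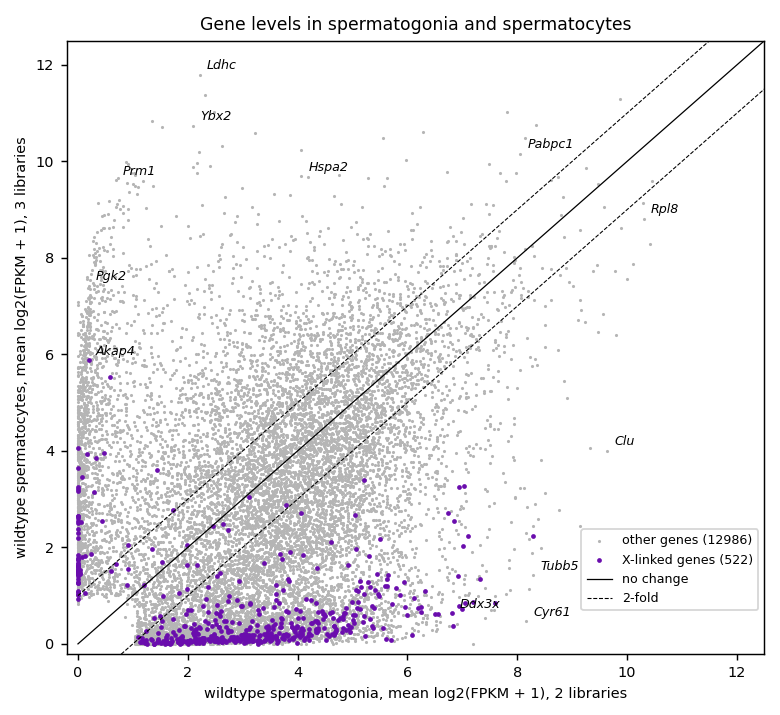
Mean log2(FPKM + 1) of each of the 13508 genes in spermatogonia (x axis, 2 libraries) and in spermatocytes (y axis, 3 libraries), with the 522 X-linked genes in purple, a solid line at no change and dashed lines at 2-fold. An arm of genes runs along each axis, and the X-linked genes lie mostly in the arm along the x axis.

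Ldhc, a lactate dehydrogenase made in sperm and their precursors, had the largest of the log2 changes (9.58) among the 12 largest rises. Fabp9, a fatty acid binding protein of the sperm head, stood at 1.51 and 2.31 FPKM in spermatogonia and at 1649, 1547 and 1834 in spermatocytes (log2 change 9.18, SE 0.3, adjusted p = 2.79e-13). Crisp2, a protein of the acrosome and tail, went from 0.474 and 1.29 FPKM to 988, 1010 and 1030 (9.10). For both, all spermatocyte libraries were far above the spermatogonia libraries and close to each other. The others were Tcte3, a dynein light chain, Spata4, Spink2, a protease inhibitor of the acrosome, Prm1, a protamine, Pgam2, the muscle type phosphoglycerate mutase, Fhl4, a LIM protein of the testis, Cmtm2a, Ybx2, which binds stored mRNA, and Rsph1, a radial spoke protein of the flagellum, with log2 changes from 8.56 to 9.07.

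Among the 12 largest falls, Cyr61, a matrix protein induced by growth signals, went from 333 and 242 FPKM to 0.65, 0.233 and 0.309 (log2 change -7.68, SE 0.27, adjusted p = 6.75e-13). Egr1, an immediate early transcription factor, went from 291 and 304.5 FPKM to 1.10, 1.31 and 1.23 (-7.08). Tubb5, the beta tubulin of dividing cells, went from 303.5 and 320.4 FPKM to 1.52, 2.32 and 1.29 (-6.87), and in wildtype cultured stem cells it averaged 288 FPKM. Amh, the hormone of fetal and pup Sertoli cells, fell by 6.81 on the log2 scale and averaged 0.30 FPKM in the cultures. Col1a2 and Sparc, of the matrix, Cnn3, an actin binding protein, the X-linked Wbp5, the AP-1 subunits Junb and Fos, Sdc4, a proteoglycan of the cell surface, and Irf1, a factor of the interferon response, fell by 6.48 to 6.87. Of the 6195 genes that fell, 5624 averaged 1 FPKM or more in wildtype cultured stem cells, as did 2040 of the 3631 that rose and 11097 of all 13508 tested. Col1a2 and Sparc averaged 102 and 172 FPKM in those cultures, so a level there does not tell germ cell RNA from other RNA.

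Genes of stem and progenitor spermatogonia were nearly all lower in spermatocytes. Of 30 such genes in the files 24 passed the filter, 22 fell and 1 rose, beside 45.9% and 26.9% of all genes tested. The median log2 change of the 30 was -3.33. A member that passed through spermatogonia alone, such as Ret, had to differ, so these counts are a description. Uchl1, a ubiquitin hydrolase and classical spermatogonial marker, went from 384 and 491 FPKM to 4.25, 6.77 and 7.01 (log2 change -5.98, SE 0.29, adjusted p = 2.68e-11). Ret, the GDNF co-receptor that sustains stem cells, went from 20.1 and 22.6 FPKM to 0.0548, 0.161 and 0.148 (-4.32), and Lin28a, which blocks let-7 maturation, fell by 4.54. Etv5, a target of GDNF signalling, Foxo1, a regulator of stem cell upkeep, Sox3, Ccnd2, a cyclin of the G1 phase, and Mcam, a surface protein, fell by 4.26 to 5.70. The member that rose was Id4, an inhibitor of helix-loop-helix factors used to mark stem cells in mouse. It stood at 12.01 and 12.3 FPKM in spermatogonia and at 33.4, 32.3 and 47.5 in spermatocytes (log2 change 1.54, adjusted p = 7.22e-06), and every spermatocyte library was above both spermatogonia libraries.

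Genes of differentiating spermatogonia fell by a like amount, with 2 exceptions. Of 17 in the files 16 passed the filter, 14 fell and 2 rose, beside 45.9% and 26.9% of all genes tested. The median was -3.67. Members such as Sohlh1 passed through spermatogonia alone and had to differ, so these counts are a description. Sohlh1, a factor of differentiation, went from 58.3 and 72.4 FPKM to 0.421, 0.596 and 0.524 (log2 change -5.45). Dmrt1, a factor of both germ and Sertoli cells that holds back meiosis in spermatogonia, fell by 5.92, Crabp1, which binds retinoic acid, by 4.90, and Tex19.1, which limits retrotransposons, by 4.52. Dmrtb1, which in mouse guards the passage from mitosis to meiosis, went the other way. It stood at 14.2 and 17.9 FPKM in spermatogonia and at 522, 443.5 and 437 in spermatocytes (log2 change 4.78, SE 0.27, adjusted p = 1.24e-10). Sycp3, which the list shares with the synaptonemal complex, rose from 58.8 and 67.5 FPKM to 151, 151 and 219 (1.42) and lost the call with quantile normalization (0.73).

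Most genes of meiotic entry were lower in spermatocytes. Of 15 that passed the filter, of 16 in the files, 9 fell and 2 rose, beside 45.9% and 26.9% of all genes tested. The median was -1.53. Stra8, the target of retinoic acid that starts meiosis, went from 33.1 and 45.8 FPKM to 0.772, 1.89 and 0.77 (log2 change -4.26, adjusted p = 8.04e-07). The receptors Rara and Rxra fell by 3.03 and 3.90, the vitamin A receptor Stra6 by 2.45 and the degrading enzyme Cyp26b1 by 3.77. The enzymes that make retinoic acid moved in opposite directions. Aldh1a1, an enzyme of Sertoli cells, went from 281 and 186 FPKM to 1.27, 2.15 and 2.71 (-6.27). Aldh1a2, the enzyme of later germ cells, went from 17.8 and 16.1 FPKM to 82.2, 87.6 and 84.5 (2.26, SE 0.17, adjusted p = 4.54e-09). Stra8 and Aldh1a2 thus separated the groups in opposite orders, without overlap, as did 93.5% of all genes tested in either order.

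Structural genes of the synaptonemal complex were mostly higher in spermatocytes. All 18 of the list passed the filter, 10 rose and 3 fell, beside 26.9% and 45.9% of all genes tested, with a median of 1.37. Syce1, of the central element, went from 16.6 and 18.7 FPKM to 320.0, 309 and 336 (log2 change 4.11, SE 0.14, adjusted p = 3.01e-13). Sycp2, of the lateral element, went from 5.24 and 5.82 FPKM to 79.6, 86.6 and 84.0 (3.69). Ccdc155, which links telomeres to dynein through the nuclear envelope, rose by 5.15, Ccdc79, of the telomere attachment, by 3.69, and Hormad1, of the unsynapsed axis, by 2.53. Trip13, the ATPase that removes HORMA proteins from the axis, fell from 29.6 and 34.6 FPKM to 3.14, 3.55 and 3.76 (-2.88), and Fkbp6, shared with the piRNA list, fell by 3.02. Syce2, a partner of Syce1 in the central element, fell by 1.05 on the log2 scale. Its change was -0.18 under median-ratio scaling, -0.92 without spermatogonia replicate 2 and -0.96 without spermatocyte replicate 1 or 2, none of which passed the call. Fkbp6 and Hormad1 were highest in spermatocyte replicate 3, with 26.3 and 63.4 FPKM there.

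Genes of DNA breaks and recombination divided evenly, and their median changed sign with the scaling. Of 36 that passed the filter, of 37 in the files, 12 rose and 13 fell, beside 26.9% and 45.9% of all genes tested. The list had a median of -0.07, and under median-ratio scaling 16 rose and 9 fell with a median of 0.71. The median was 0.45 with quantile normalization, 0.02 without spermatogonia replicate 2 and 0.01 without spermatocyte replicate 1. Spo11, which cuts the DNA to start recombination, stood at 0.35 and 0.172 FPKM in spermatogonia and at 59.4, 61.6 and 61.4 in spermatocytes (log2 change 5.62, SE 0.18, adjusted p = 2.93e-13). Psmc3ip, a partner of the strand exchange proteins, rose by 3.13, Atr, the kinase of unsynapsed chromatin, from 8.96 and 9.50 FPKM to 77.4, 88.1 and 81.2 (3.02), and Hfm1, a crossover helicase, by 2.79. Brca1, a sensor of unsynapsed axes, fell from 13.9 and 15.2 FPKM to 0.806, 0.969 and 0.952 (-3.03). Tex11, an X-linked crossover protein, fell by 3.96. Spo11 and Atr thus stood above their spermatogonial level in every spermatocyte library, and Brca1 and Tex11 below it.

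Cohesins, the rings that hold sister chromatids, moved in both directions. Of the 19 listed, all of which passed the filter, 4 rose and 9 fell, with a median of -0.95. These shares are near the 26.9% and 45.9% of all genes tested, and 7 rose and 6 fell under median-ratio scaling. The mitotic subunits Rad21, Smc1a and Stag2 fell by 4.19, 3.80 and 3.24 on the log2 scale, and Smc3 by 3.37. Stag3, the meiotic subunit, rose from 23.0 and 26.5 FPKM to 159, 156 and 142 (log2 change 2.58, SE 0.15, adjusted p = 3.03e-10). Smc1b, the meiotic copy of Smc1a, rose by 1.86. Nipbl, the loader of the ring, rose by 2.45 and Pttg1, the inhibitor of separase, by 1.95. Smc3 has no listed meiotic copy, and it went from 60.7 and 59.8 FPKM to 4.63, 5.45 and 4.74.

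Genes of the pachytene stage had the largest summed FPKM of the germ cell lists in spermatocytes. Of 30 in the files 28 passed the filter, 25 rose and 2 fell, beside 26.9% and 45.9% of all genes tested. Members such as Adam2 and Adam3 passed the filter through spermatocytes alone and had to differ, so these counts are a description. The median of the 30 was 5.03, and their summed FPKM went from 181 and 192 in spermatogonia to between 10990 and 11260 in spermatocytes. Ybx2 went from 2.92 and 3.67 FPKM to 1742, 1680 and 1713 (log2 change 8.64, SE 0.18, adjusted p = 2.91e-15). Hspa2, the chaperone that pachytene cells need to activate CDK1, went from 14.8 and 16.8 FPKM to 818, 839 and 813 (5.62). Ccna1, the cyclin of meiotic division, rose by 6.27. Adam2 and Adam3, surface proteins of the later sperm, Tcp11, Meig1, which carries cargo to the manchette, Spata16 and Zpbp2, of the acrosome, rose by 7.61 to 8.16. The X-linked kinesin Kif4 fell by 3.35 and the phosphatase Cdc25c by 1.53, the latter not past the call under either other scaling.

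Regulators of the meiotic transcription programme rose in 21 of 33 cases and fell in 7, of 38 in the files, with a median of 1.81. The shares among all genes tested were 26.9% and 45.9%. Members such as Gtf2a1l and Kctd19 passed the filter through spermatocytes alone and had to differ, so these counts are a description. Rfx2, a factor of cilium and flagellum genes, went from 0.525 and 0.606 FPKM to 153, 161.5 and 132 (log2 change 6.58, SE 0.18, adjusted p = 3.14e-14). Kctd19 and Zfp541, which act in a deacetylase complex of pachytene cells, rose by 7.55 and 5.57. Gtf2a1l, a germ cell form of TFIIA, rose by 7.18, Spz1 by 6.04, Hsf5 by 5.75 and Creb3l4 by 4.58. The falls with the largest sizes were Taf7l, an X-linked TFIID subunit, from 124 and 151 FPKM to 3.46, 3.96 and 3.77 (-4.86), Scml2, an X-linked Polycomb protein that shapes the germline epigenome (-4.19), and E2f6, a repressor of meiotic genes in somatic cells (-4.12).

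The piRNA pathway, which silences transposons, was higher in spermatocytes in most members. All 27 listed genes in the files passed the filter, 18 rose and 5 fell, beside 26.9% and 45.9% of all genes tested. The median was 1.87. Tdrd6, a scaffold of the chromatoid body, went from 0.312 and 0.295 FPKM to 224, 238 and 155 (log2 change 7.28, SE 0.2, adjusted p = 3.2e-14). Mael, a factor of piRNA production, was already abundant in spermatogonia, at 100.1 and 110.1 FPKM, and rose to 835, 874 and 912 (3.04). Tdrd5 and Tdrd7 rose by 3.11 and 3.34 and Mybl1, the transcription factor of pachytene piRNA genes, by 2.76. Tex15, which directs transposon silencing in fetal germ cells, fell by 2.03. Piwil1 and Tdrd6 were lowest among spermatocytes in replicate 3 and still far above both spermatogonia libraries.

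RNA-binding proteins of germ cells went both ways, with 16 that rose and 15 that fell among 38 that passed the filter, of 39 in the files. Of all genes tested 26.9% rose and 45.9% fell. The median of the list was -0.27, and 0.57 under median-ratio scaling. Csda, a Y-box protein, went from 47.0 and 44.8 FPKM to 1493, 1404 and 1377 (log2 change 4.92, SE 0.19, adjusted p = 1.49e-12). Papolb, a cytoplasmic poly(A) polymerase, rose by 6.58 and Adad1 by 4.69. Dazl, a translation regulator of germ cells, fell by 3.39 and Msi2, another, by 2.55. Zfp36l2, which promotes decay of mRNA, fell from 67.3 and 66.6 FPKM to 0.607, 1.14 and 0.942 (-5.17), and Tex13, an X-linked gene, fell by 4.24.

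Transcripts used after meiosis rose without exception among the members that passed the filter, as 36 of 36 spermatid genes, 23 of 23 acrosome genes and 42 of 42 genes of the axoneme and intraflagellar transport did. Among all genes tested 26.9% rose, and a member that passed through spermatocytes alone had to differ, so these counts are a description. The medians over all 38, 24 and 44 genes in the files were 5.31, 4.82 and 5.07. Acr, the acrosomal protease, stood at 0 and 0.233 FPKM in spermatogonia and at 149, 129 and 135 in spermatocytes. Acrbp, its binding protein, went from 4.19 and 3.50 FPKM to 391.5, 350.0 and 343 (log2 change 6.23, SE 0.22, adjusted p = 6.59e-13). Zpbp, Dpy19l2 and Spesp1, needed for the shape or membrane of the acrosome, rose by 5.31, 6.41 and 6.30. Acrosome genes differed little among the spermatocyte libraries, with sums of 2497, 2356 and 2424 FPKM.

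The genes of DNA packaging in late spermatids varied more. Prm1 stood at 604, 1101 and 717 FPKM in the spermatocyte libraries, Prm2 at 540.3, 1060 and 656 and Tnp2 at 436, 826 and 441. Tnp1 went from 3.53 and 4.12 FPKM to 395.5, 818 and 512 (log2 change 6.84, SE 0.65, adjusted p = 7.14e-08). In each of these 4 genes spermatocyte replicate 2 was the highest, and each was under 5 FPKM in both spermatogonia libraries. Odf1, of the outer dense fibres, Smcp, of the mitochondrial sheath, Oaz3, an antizyme of spermatids, and Actl7b, an actin-like protein, rose by 6.62 to 7.34.

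Genes of the flagellum summed to 133 and 146 FPKM in spermatogonia and to 8107, 8748 and 8682 in spermatocytes. Rsph1 stood at 3.26 and 6.19 FPKM in spermatogonia and at 1593, 2356 and 2444 in spermatocytes (log2 change 8.56, SE 0.25, adjusted p = 7.86e-14). Ropn1l, a radial spoke and fibrous sheath protein, went from 4.87 and 5.45 FPKM to 1290, 1183 and 1352 (7.69). Spag6, of the central pair, went from 0.215 and 0.238 FPKM to 248, 239 and 230 (7.61). Lrrc50, needed to assemble dynein arms, rose by 8.10, Rsph6a by 7.07 and Dnali1, an inner arm dynein chain, by 6.71.

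Promoter windows of these genes held the motif of the RFX factors more often than promoters at large, given here as a description with no test. In RefSeq's windows of 300 bases on GRCm38.p6 (250 before a start to 50 after it), the letters GTTGCCNNG were searched on both strands. They occurred in 5.0% of all 32851 windows and in 6.05% of the 13575 windows of genes tested. They were in 10.2% of the windows of genes that rose, 15.4% of those of genes that rose by at least 32-fold and 4.03% of those of genes that fell. In the axoneme list they were in 10 of 40 windows, which belong to 35 genes, and Tekt2 is counted with more than 1 window. The GC box GGGCGG ran the other way, at 49.5% of the windows of genes that rose and 66.7% of those that fell. The median GC content of these windows was 57.7% and 61.7%, and its part in the motif shares was not tested. The MYB letters AACNGNC were in 40.4% of the windows of genes that rose and 29.1% of those that fell, and the CRE letters TGACGTCA in 2.94% and 2.42%. The MYB and RFX letters can share the bases GTT, so a stretch can match both, and a match is a description, not a binding site. The matches of the 3 axoneme genes with the largest rises among those with a match are shown with 100 bases around them, 5' to 3' on the strand of the gene, the match in capitals.
Ropn1l (chr15:31453655-31453754, minus strand): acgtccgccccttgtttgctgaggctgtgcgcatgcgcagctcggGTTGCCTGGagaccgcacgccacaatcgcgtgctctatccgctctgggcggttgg
Spag6 (chr2:18698940-18699039, plus strand): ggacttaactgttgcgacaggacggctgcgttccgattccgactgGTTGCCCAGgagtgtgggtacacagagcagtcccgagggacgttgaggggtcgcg
Spag16 (chr1:69826811-69826910, plus strand): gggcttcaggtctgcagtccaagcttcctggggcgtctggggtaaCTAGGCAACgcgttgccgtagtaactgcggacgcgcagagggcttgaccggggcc
In Spag16, a central pair protein that rose by 6.68 on the log2 scale, the match lies on the opposite strand and reads as its reverse complement.

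**Figure D3:**
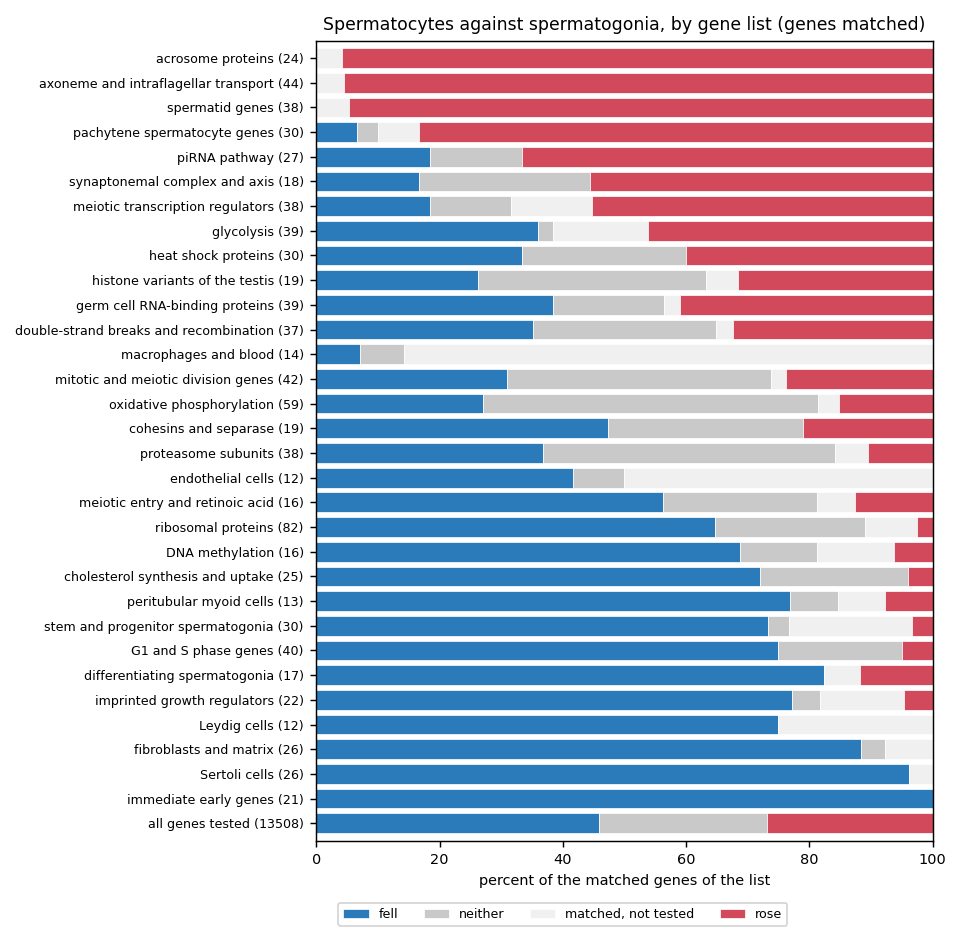
Percent of the matched genes of each of the 31 lists that fell, did neither, were not tested or rose in spermatocytes, with all 13508 genes tested as the bottom bar and the number of matched genes in brackets. Acrosome, axoneme and spermatid lists show no falls, Sertoli cell and immediate early lists no rises, and the recombination, division and RNA-binding lists both.

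Genes of the G1 and S phases fell, while those of cell division did not fall as a group. All 40 G1 and S phase genes passed the filter, 30 fell and 2 rose, beside 45.9% and 26.9% of all genes tested. The median was -2.17. Mcm2, a subunit of the replicative helicase, went from 79.1 and 91.8 FPKM to 0.496, 1.02 and 0.654 (log2 change -5.66, SE 0.18, adjusted p = 2.54e-13). Its partners Mcm3 and Mcm4 fell by 4.02 and 4.45, the licensing factor Cdt1 by 4.98, the S phase regulator E2f1 by 4.04 and the growth regulator Mycn by 3.97. Pcna, the polymerase clamp that also serves repair, stood at 53.9 and 64.4 FPKM in spermatogonia and at 51.9, 46.9 and 62.4 in spermatocytes, so its groups overlapped. Cdkn2c, an inhibitor of the G1 kinases, rose from 10.2 and 10.4 FPKM to 109.6, 102 and 117 (3.29), and the replication gene Gins1 rose by 1.35.

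Among 41 division genes that passed the filter, of 42 in the files, 10 rose and 13 fell, beside 26.9% and 45.9% of all genes tested. Under median-ratio scaling 17 rose and 10 fell, and the median of -0.06 became 0.77. Ccna2, the cyclin of S phase and mitosis, went from 53.1 and 54.4 FPKM to 0.97, 0.892 and 1.03 (log2 change -4.80), and Ccna1 from 0.359 and 0.751 to 128, 118 and 109. Aurkc, the meiotic Aurora kinase, rose by 3.00 and held 25.6% to 39.7% of its pair with Aurkb in spermatocytes. Aurkb did not pass the call (-0.75, and 0.10 under median-ratio scaling), and Aurka, the spindle pole kinase, rose by 2.59. Fbxo43, the meiotic inhibitor of the anaphase-promoting complex, rose by 4.45, and Fbxo5, its mitotic relative, fell by 2.70. Cenpa, the histone of centromeres, fell by 5.43, Cks1b by 4.35 and the phosphatase Cdc25b by 3.42.

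Energy genes moved in both directions. Of 33 glycolysis genes that passed the filter, of 39 in the files, 18 rose and 14 fell, beside 26.9% and 45.9% of all genes tested. The list had a median of 0.27. Slc2a3, a neuronal and germ cell glucose transporter, went from 4.03 and 4.62 FPKM to 992.5, 950.3 and 945 (log2 change 7.50, SE 0.19, adjusted p = 1.57e-14). Slc2a5, the fructose transporter, rose by 7.55, and Slc16a7, a carrier of lactate and pyruvate, by 5.58. Hk2, a hexokinase, fell by 4.37 and Ldhb, the heart type lactate dehydrogenase, from 108 and 81.9 FPKM to 1.36, 3.02 and 1.52 (-5.04). Among 57 genes of oxidative phosphorylation that passed the filter, of 59 in the files, 9 rose, 16 fell and 32 did neither, beside 26.9% and 45.9% of all genes tested. Under median-ratio scaling 22 rose and 11 fell, with quantile normalization 4 rose and 21 fell, and the median of -0.20 became 0.64 under the former. Cox4i1, a cytochrome oxidase subunit with no germ cell copy in the list, stood at 678 and 743 FPKM in spermatogonia and at 709, 669 and 863 in spermatocytes, with overlap.

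Pairs of related genes, a broadly expressed gene and a copy known from germ cells, were compared as shares within each library, which need no scaling between libraries. In 41 of 42 pairs the germ cell copy made up more of the summed FPKM of the pair in every spermatocyte library than in every spermatogonia library. The germ cell copy rose in 34 pairs and the broadly expressed copy fell in 29, with both in 21 pairs, or 25 under median-ratio scaling. Among all genes tested 26.9% rose and 45.9% fell. Some germ cell copies, such as Pgk2 and Gapdhs, were under 1 FPKM in both spermatogonia libraries. They passed the filter through spermatocytes alone and had to differ, so these counts are a description. In 25 pairs the germ cell copy held over 90% of the sum in every spermatocyte library, and in 0 pairs in every spermatogonia library. Members of a pair are related in sequence, so reads can be shared between them, and the division is uncertain for the closest ones.

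Among enzymes, Gapdhs, the sperm form of glyceraldehyde phosphate dehydrogenase, made up 0.396% and 0.0711% of its pair with Gapdh in spermatogonia and 98.9%, 98.4% and 98.4% in spermatocytes. Gapdh itself went from 74.0 and 76.3 FPKM to 0.918, 2.15 and 1.41 (log2 change -4.96, SE 0.27, adjusted p = 8.57e-11). Ldhc made up 5.76% and 8.92% of its pair with Ldha in spermatogonia and 82.9%, 83.2% and 83.6% in spermatocytes, where both copies rose. Of the cytochrome oxidase subunits, Cox8c went from 1.89% and 2.65% of its pair with Cox8a to 99.6%, 99.4% and 99.5%, and Cox6b2 from 4.84% and 5.60% of its pair with Cox6b1 to 97.1%, 96.3% and 96.2%. Cyct, the testis form of cytochrome c, was the larger part already in spermatogonia, at 57.8% and 74.6%, and reached 99.8%, 99.5% and 99.7%.

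Among chaperones and genes of protein degradation, Hspa2 made up 5.75% and 6.51% of its pair with Hspa8 in spermatogonia and 98.6%, 98.5% and 98.0% in spermatocytes, as Hspa8, the constitutive chaperone of most cells, went from 243 and 241 FPKM to 11.98, 12.6 and 16.8 (log2 change -4.05). Psma8, the proteasome subunit of spermatocytes, went from 3.67% and 3.95% of its pair with Psma7 to 94.6%, 92.6% and 94.0%. Clgn, the germ cell calnexin, went from 3.19% and 4.54% to 89.7%, 88.7% and 85.3%, with Canx at 45.5 to 62.3 FPKM in all 5 libraries. Ppp3r2, the testis subunit of calcineurin, went from 0.336% and 0.487% of its pair with Ppp3r1 to 99.7%, 99.4% and 99.6%.

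Regulators of RNA differed more from pair to pair. Ybx2 made up 2.32% and 2.70% of its pair with Ybx1 in spermatogonia and 79.2%, 78.6% and 79.6% in spermatocytes, where Ybx1 rose too, a call it lost with quantile normalization (1.00). Pabpc2 stayed the smaller part of its pair with Pabpc1, at 26.7%, 26.2% and 24.8% in spermatocytes, though it rose by 8.01 on the log2 scale. Brdt, the bromodomain protein of meiotic cells, reached 53.4%, 57.8% and 58.6% beside Brd2, and Tbpl1 56.9%, 55.7% and 58.7% beside Tbp, of which both copies rose. Rad21l, a cohesin of early meiotic prophase, remained at 1.35%, 5.01% and 3.41% of its pair with Rad21, and both copies fell. Its fall of 1.08 on the log2 scale was no call under quantile normalization (-0.48), under median-ratio scaling (-0.79) or without spermatocyte replicate 1, where it was just under 2-fold. The pair against the rule was Taf7 and Taf7l, in which the germ cell copy is on the X chromosome and its share went from 78.8% and 80.8% to 34.7%, 33.9% and 30.7%.

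**Figure D4:**
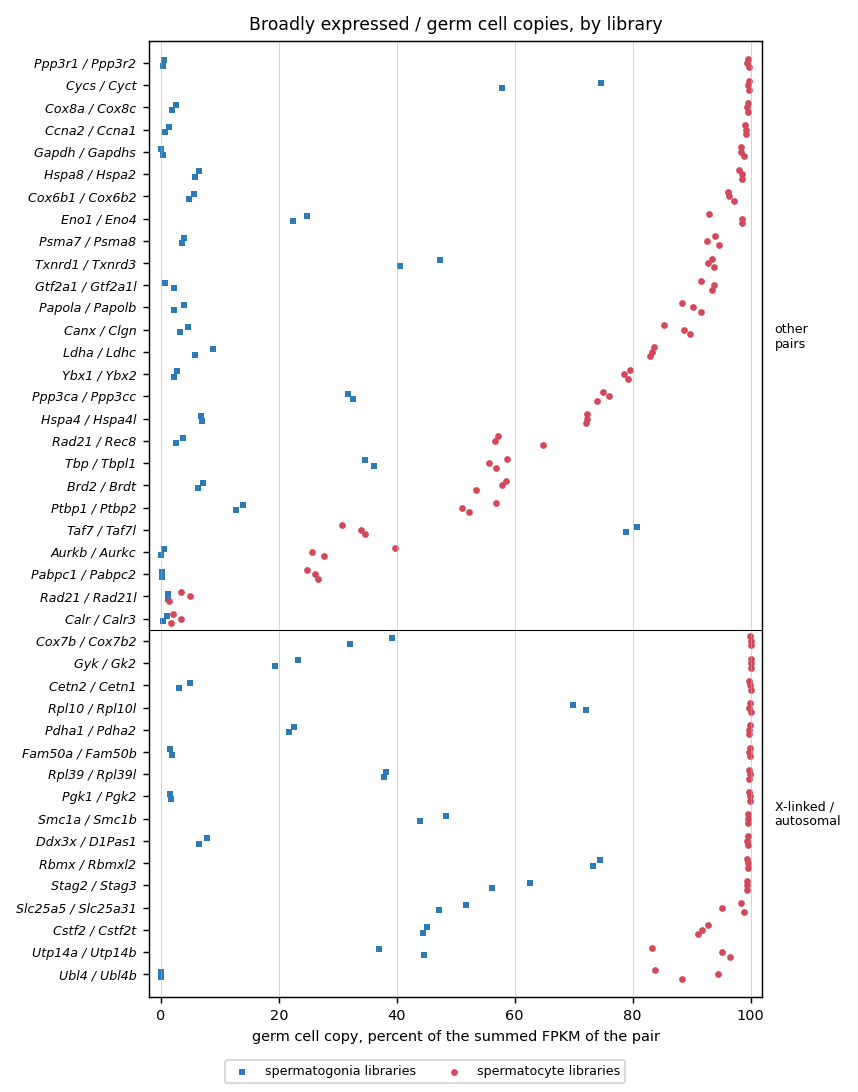
The germ cell copy as a percent of the summed FPKM of its pair in each library, for 42 pairs named as broadly expressed gene and germ cell copy, with squares for spermatogonia, circles for spermatocytes and the 16 pairs with an X-linked broadly expressed gene and an autosomal copy below the line. All 16 lie at 83.2% to 100% in spermatocytes, whatever their share in spermatogonia, and Taf7 with Taf7l is the pair that moves left.

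The 16 pairs whose broadly expressed gene is X-linked and whose germ cell copy is autosomal moved most alike. All 16 X-linked copies fell, as did 83.5% of the 522 X-linked genes tested. Their autosomal copies rose in 12 pairs, beside 27.5% of all autosomal genes tested. The share of the autosomal copy was 0% to 74.5% in spermatogonia and 83.2% to 100% in spermatocytes, over 90% in every spermatocyte library in 14 pairs. Pgk1, phosphoglycerate kinase, went from 8.59 and 8.61 FPKM to 0.177, 0.267 and 0.53 (log2 change -2.87, adjusted p = 6.02e-09), and Pgk2 from 0.157 and 0.13 to 161, 180.2 and 171 (7.23). Ddx3x, an RNA helicase, went from 121 and 103 FPKM to 0.564, 0.686 and 0.409 (-6.18), and D1Pas1, its autosomal retrogene, from 8.39 and 8.70 to 112, 121 and 104. Cetn1 and Fam50b, which held under 5% of their pairs with Cetn2 and Fam50a in spermatogonia, held at least 99.7% in every spermatocyte library.

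In 4 of these pairs the autosomal copy did not pass the call, and its share grew mainly through the other member. Rbmxl2, an RNA-binding protein of meiotic cells, stood at 49.8 and 53.2 FPKM in spermatogonia and at 61.8, 58.4 and 80.2 in spermatocytes (log2 change 0.36, adjusted p = 0.109). Slc25a31, the germ cell carrier of ATP, stood at 62.7 and 71.2 FPKM against 34.0, 35.2 and 48.3 (-0.77). Cstf2t and Utp14b changed by 0.47 and 0.36. Under median-ratio scaling Rbmxl2, Cstf2t and Utp14b passed the call as rises (1.23, 1.31 and 1.14) and Slc25a31 was at 0.10, and with quantile normalization Utp14b rose (1.01) and Slc25a31 fell (-1.16). The shares of these 4 were 37.0% to 74.5% in spermatogonia, and Rbmx, Slc25a5, Cstf2 and Utp14a, the X-linked members, fell by 3.83, 5.17, 2.78 and 2.57. Rpl10l and Rpl39l, copies of ribosomal proteins, belonged to the other 12, with levels of 263 to 352 FPKM in spermatocytes, where Rpl10 and Rpl39 were under 1.

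CpG content was counted in the promoters of the pairs. Of 29 pairs with a RefSeq window for both members, the germ cell copy had fewer CpG in 18, more in 10 and as many in 1, and for X-linked parents it had fewer in 7 of 14, with a median of 21.5 CpG in the X-linked windows and 14 in those of their copies. The window with the most CpG of each gene was used. The windows of the Pgk pair, where the copy has fewer, and of the Smc1 pair, where it has more, are printed as examples chosen after the counts were known, 5' to 3' on the strand of the gene (GRCm38.p6, RefSeq), with CpG in capitals.
Pgk1 (chrX:106186850-106187149, plus strand): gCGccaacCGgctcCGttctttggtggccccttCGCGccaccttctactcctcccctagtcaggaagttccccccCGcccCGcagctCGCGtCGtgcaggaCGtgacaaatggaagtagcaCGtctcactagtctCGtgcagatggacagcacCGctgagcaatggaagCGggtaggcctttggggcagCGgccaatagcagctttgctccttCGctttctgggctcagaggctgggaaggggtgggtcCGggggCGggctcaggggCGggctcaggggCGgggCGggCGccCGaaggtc
Pgk2 (chr17:40208560-40208859, minus strand): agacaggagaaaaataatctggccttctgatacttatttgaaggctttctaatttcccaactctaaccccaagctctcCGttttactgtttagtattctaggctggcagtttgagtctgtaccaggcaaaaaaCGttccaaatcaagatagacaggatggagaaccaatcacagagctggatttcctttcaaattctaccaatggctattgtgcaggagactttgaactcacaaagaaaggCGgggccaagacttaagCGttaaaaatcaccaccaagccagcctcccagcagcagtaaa
Smc1a (chrX:152016178-152016477, plus strand): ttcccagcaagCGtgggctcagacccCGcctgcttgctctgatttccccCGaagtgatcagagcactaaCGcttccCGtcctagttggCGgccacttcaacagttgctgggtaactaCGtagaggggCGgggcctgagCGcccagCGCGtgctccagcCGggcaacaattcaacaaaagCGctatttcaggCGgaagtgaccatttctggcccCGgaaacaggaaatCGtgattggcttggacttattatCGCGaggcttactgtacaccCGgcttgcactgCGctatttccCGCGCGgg
Smc1b (chr15:85131908-85132207, minus strand): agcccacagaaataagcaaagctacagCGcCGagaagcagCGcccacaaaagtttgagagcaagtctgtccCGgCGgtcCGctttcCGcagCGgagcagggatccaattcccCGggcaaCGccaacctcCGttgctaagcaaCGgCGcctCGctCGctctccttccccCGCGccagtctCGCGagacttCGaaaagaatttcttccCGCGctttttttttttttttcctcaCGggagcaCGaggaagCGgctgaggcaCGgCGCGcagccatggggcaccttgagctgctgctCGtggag
Pgk1 has 24 CpG and Pgk2 4, while Smc1a has 23 and Smc1b 29. The autosomal copy held 99.7% to 99.9% of the Pgk pair and 99.6% of the Smc1 pair in spermatocytes.

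X-linked genes as a whole were lower in spermatocytes. Of 522 tested, 436 fell (83.5%), 60 rose and 26 did neither, against 44.4% that fell among 12869 autosomal genes and 38.3% to 48.8% on the individual autosomes. The median log2 change was -2.66 on the X and between -0.92 and -0.38 on each autosome. X-linked genes held 3.02% and 2.87% of the FPKM of the spermatogonia libraries and 0.167%, 0.194% and 0.167% of that of the spermatocyte libraries. The number of X-linked genes at 1 FPKM or more went from 472 and 480 to 128, 132 and 128. Under median-ratio scaling 415 of the X-linked genes fell, 79.5%, against 33.2% of the autosomal ones.

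The X-linked genes that rose were mostly at low levels. Of the 60, 57 were under 1 FPKM in both spermatogonia libraries, as were 1494 of the 3539 autosomal genes that rose. Such genes passed the filter through spermatocytes alone, so the counts are a description. The median mean level of the 60 in spermatocytes was 2.45 FPKM, against 28.3 for autosomal genes that rose. The highest was Akap4, the anchor protein of the fibrous sheath of the sperm tail, at 0.183 and 0.113 FPKM in spermatogonia and 52.4, 79.0 and 47.2 in spermatocytes (log2 change 5.69, SE 0.33, adjusted p = 2.16e-10). Tsga8, a testis gene, went from 0.444 and 0.56 FPKM to 47.7, 43.4 and 43.8 (4.94). Akap4, like the protamines, was highest in spermatocyte replicate 2. That library held the most FPKM of the spermatid list, a sum that includes these genes. In all, 9 X-linked genes averaged over 10 FPKM in spermatocytes, and 206 did in spermatogonia.

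The 5 Y-linked genes tested, Ddx3y, Eif2s3y, Kdm5d, Usp9y and Uty, all fell. Ddx3y, the Y copy of Ddx3x, went from 25.1 and 19.8 FPKM to 0.164, 0.284 and 0.214 (log2 change -4.26, SE 0.15, adjusted p = 7.76e-13). Eif2s3y, the translation factor subunit on which spermatogonia depend in mouse, kept the highest level, with 33.7 and 34.2 FPKM in spermatogonia and 3.26, 3.99 and 4.15 in spermatocytes. Usp9y lost its call with quantile normalization (-0.81).

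**Figure D5:**
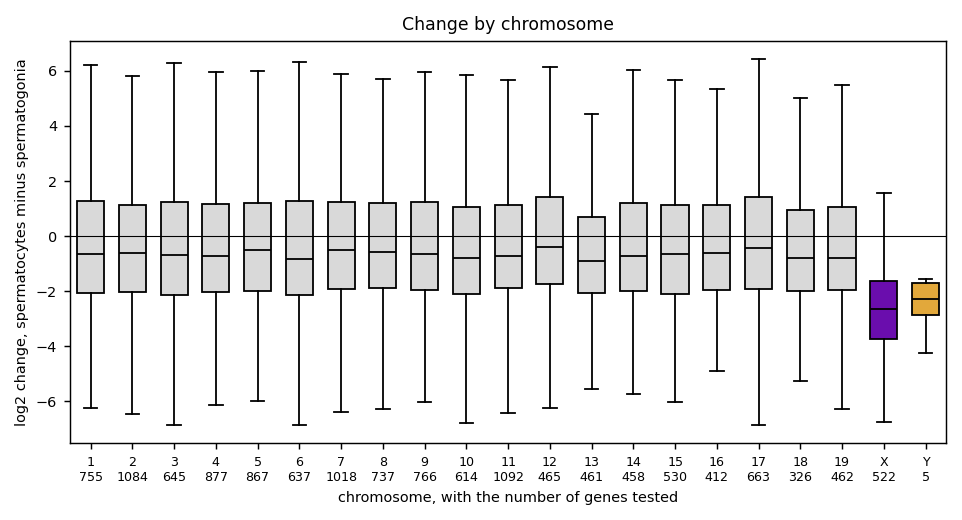
Log2 change of the genes tested on each chromosome, with the box from the lower to the upper quartile, the line at the median, whiskers to the last gene within 1.5 box lengths and genes beyond them not drawn. The autosomal medians lie between -0.92 and -0.38, the X median is -2.66 and the upper edge of the X box lies below the autosomal medians.

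Immediate early genes fell in all 21 cases, beside 45.9% of all genes tested, with a median of -5.28. These genes are induced quickly by growth factors and by stress. Junb went from 233 and 210.3 FPKM to 1.11, 0.911 and 1.17 (log2 change -6.75, SE 0.47, adjusted p = 1.82e-09), and Fosb, Ier2 and Ier3 fell by 6.01 to 6.29. Their summed FPKM was 2055 and 2028 in spermatogonia and 37.1 to 40.5 in spermatocytes.

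Genes of the Sertoli cell, fibroblast, Leydig cell and myoid lists fell with few exceptions, and the sums of all but the myoid list are given above. In the Sertoli cell list 25 of 25 genes that passed the filter fell, with a median of -5.14 over 26, and in the fibroblast and matrix list 23 of 24 with a median of -4.67 over 26. Among all genes tested 45.9% fell. A member that passed through spermatogonia alone, such as Amh, had to differ, so the counts of the somatic lists are a description. Inha, the inhibin subunit of Sertoli cells, went from 334 and 245 FPKM to 3.47, 4.26 and 4.14 (log2 change -5.86, SE 0.3, adjusted p = 4.15e-11). Vim, the intermediate filament of mesenchymal and Sertoli cells, fell by 6.46. All 9 Leydig cell genes that passed the filter fell, of 12 in the files, and Insl3, the hormone of Leydig cells, remained at 8.79, 12.4 and 44.97 FPKM in spermatocytes, highest in replicate 3. In the myoid list 10 of 12 fell and 1, the smooth muscle actin Actg2, rose from 2.46 and 1.85 FPKM to 18.9, 24.3 and 18.0 (2.76). Endothelial and blood genes were low throughout, with sums of 25.6 and 34.7 FPKM and of 6.69 and 11.1 FPKM in spermatogonia. In spermatocytes the sums were 4.71, 2.16 and 3.475 FPKM and 1.59, 3.51 and 3.48 FPKM. Only 6 endothelial genes passed the filter, of which 5 fell, and 2 macrophage and blood genes, of which 1 fell. The medians over the 12 and 14 genes in the files were -0.77 and -0.26, beside -0.74 for all genes tested.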

How the data were processed

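The authors deposited FPKM values by gene symbol for 16 RNA libraries. Tools named in the submitters' processing notes, with no settings, are TopHat2 2.0.6 and Cufflinks 2.0.2, and the build is mm9. Per the labels' protocols, TRIzol was used for extraction and NEBNext Ultra Directional kits for the libraries, which were read on a HiSeq-X10. Of 23021 rows, the 728 rows of 259 symbols listed more than once were left out, which left 22293 genes, and 25 symbols with the form of a date were not named. Read depth is not given in the sources used here. Steps between low FPKM values put the 5 libraries within 0.88 to 1.1 of each other in relative depth, and no counting interval was computed.

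Deposited FPKM values were analysed as log2(FPKM + 1) with R 4.3.3 and limma 3.58.1 (two-sided, with a mean-variance trend), with 1 mean per group over all 16 libraries and 10 residual degrees of freedom, and p-values were adjusted over 13508 genes by Benjamini and Hochberg's method. Gene lists are described by counts and medians, with no set test. The genes compared, the lists and the tests were chosen with earlier results of these data known. Named genes are the 12 largest rises and falls with at least 5 FPKM in a group and no overlap. They also include, of each list, up to 8 members with the largest changes, up to 3 against the direction of most, up to 3 not called, the cell type markers, and both genes of each pair. Some genes that this rule names are not reported here. The sex chromosome genes, the shares given in each pair, Spag16, Aurka, Dazl and Msi2 were chosen for naming after their values were seen. Chromosomes came from RefSeq tables by symbol (20004) or synonym (2298), with 250 symbols unmatched. Promoter windows came from RefSeq on GRCm38.p6, not from the mm9 build of the files, so no coordinate of the files was used with them. Those of chromosome 18 were left out. Near-identical copies can share reads and are uncertain, among them histones, Hspa1a with Hspa1b and ribosomal proteins. The procedure was tested on simulated data. Summaries and figures were made with Python 3.11.15, numpy 2.4.6, pandas 2.3.3 and matplotlib 3.10.9. Alternatives were a pseudocount of 0.1, no filter, quantile normalization, median-ratio scaling, only the 5 libraries, a replicate block, repeated symbols summed, and each of the 5 libraries left out in turn.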

Additional observations from a re-analysis of the deposited data

How the results depend on the processing

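The number of genes that rose was 3580 to 3651 and of those that fell 6109 to 6298 with any 1 library left out, and X-linked falls numbered 432 to 439. The scaling between libraries changed most. Of 9826 calls, 8262 were kept with quantile normalization (4109 rises, 4954 falls), 8346 with median-ratio scaling, and 9617 to 9826 under each other setting. A pseudocount of 0.1 gave 3830 rises and 6538 falls. Of 220 called genes that other paragraphs name, 214 kept the call under all 7 alternatives and with each of the 5 libraries left out. Exceptions were Cdc25c, Rad21l, Syce2, Sycp3, Usp9y and Ybx1. Ybx1 lost its call with quantile normalization (1.00). The 220 leave out some pair members, of which Txnrd1 lost its call with median-ratio scaling (-0.19) and Gyk with quantile normalization (-0.85). Why the scalings differ was not tested.

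Medians of 6 of 31 lists changed sign. With median-ratio scaling they were 0.71 for recombination, 0.57 for RNA-binding proteins, 0.72 for testis histones, 0.77 for division and 0.64 for oxidative phosphorylation. With quantile normalization they were 0.45 for recombination and 0.03 for macrophages and blood (-0.26 as deposited). With each library left out in turn they were -0.10 to 0.02 for recombination and -0.14 to 0.18 for testis histones. Among genes that were not called, log2 changes turned to 0.54 for Brd2, 0.10 for Aurkb, 0.73 for Pcna and 0.10 for Slc25a31 with median-ratio scaling, and to -0.19 for Canx, -0.89 for Cox4i1 and -0.15 for Rbmxl2 with quantile normalization. Cox4i1 was at -0.04 to 0.14 with each library left out in turn. Rbmxl2, Cstf2t, Utp14b and Canx passed the call with median-ratio scaling (1.23, 1.31, 1.14 and 1.09).

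Spermatogonia and spermatocyte libraries of the same number did not deviate together (r = -0.03 and -0.13 across genes), so the numbers were not taken to pair them. Sheet names in the deposited workbooks number the spermatogonia libraries 2 and 3, and by those numbers r was 0.13 and 0.08. With 2 spermatogonia libraries the deviations mirror each other, so the sign alone shows no pairing. With the replicate number as a block 3611 genes rose and 6257 fell, the histone median was 0.06 and Cox4i1 was at -0.05.

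Depth limits genes near 1 FPKM, for which the added 1 shrinks the fold change.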

Other observations

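Among 30 heat shock genes, all of which passed the filter, 12 rose and 10 fell, beside 26.9% and 45.9% of all genes tested. The median log2 change of the list was 0.35. Hspb9, a small heat shock protein of the testis, stood at 1.51 and 1.07 FPKM in spermatogonia and at 828, 756 and 746 in spermatocytes (8.41, limma adjusted p = 2.01e-14). Cct6b, the testis form of a chaperonin subunit, rose by 6.92, and the testis members Dnajb3 and Dnajb13 by 5.87 and 5.86. The stress-induced genes Hspa1a, Hspa1b and Hspb1 fell by 5.07, 5.24 and 5.80. Of 36 proteasome genes that passed the filter, of 38 in the files, 4 rose and 14 fell, shares below the 26.9% and 45.9% of all genes tested, and 7 fell under median-ratio scaling. Psme4, the activator that opens the proteasome for acetylated histones in germ cells, rose from 16.5 and 14.6 FPKM to 99.8, 108 and 81.8, and the interferon-induced activators Psme1 and Psme2 fell by 5.42 and 2.99.

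Ribosomal protein genes were lower in spermatocytes, in 53 of 75 that passed the filter (2 rose), beside 45.9% and 26.9% of all genes tested. They had a median of -1.60 over 82 in the files and of -0.75 under median-ratio scaling. Their summed FPKM was 13620 and 16120 in spermatogonia and 4585, 4491 and 5512 in spermatocytes. The 3 largest falls were the X-linked Rpl39, Rps4x and Rpl10, by 5.93, 5.51 and 4.42, and the 2 that rose were the germ cell copies Rpl39l and Rpl10l. Cholesterol genes fell in 18 of 25 cases, beside 45.9% of all genes tested. The regulator Insig1 fell by 4.29, while Fdft1, squalene synthase, rose by 2.08.

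Of 14 DNA methylation genes that passed the filter, of 16 in the files, 11 fell and 1 rose, beside 45.9% and 26.9% of all genes tested. The de novo enzymes Dnmt3a and Dnmt3b fell by 3.62 and 3.67, the oxidases Tet2 and Tet3 by 2.14 and 3.58, and Mbd3, of the NuRD complex, rose from 33.5 and 37.3 FPKM to 114, 109 and 118. Imprinted growth regulators fell in 17 of 19 cases, beside 45.9% of all genes tested. Dlk1 went from 63.9 and 92.8 FPKM to 0.189, 0.119 and 0.0811 and H19 from 38.0 and 61.4 to 0.14, 0.132 and 0.0698, and Mirg, from the same domain as Dlk1 and Meg3, rose from 1.75 and 3.04 FPKM to 15.5, 12.6 and 12.3, when Meg3 fell by 4.58. Dlk1 and H19 are also expressed by somatic cells of the pup testis, whose lists moved the same way, and their part was not tested. Among 18 testis histone genes that passed the filter, 6 rose and 5 fell, beside 26.9% and 45.9% of all genes tested. Hils1 and H1fnt, of spermatids, were up by 6.16 and 5.31 and Cenpa and H2afy2 down by 5.43 and 3.88. The median of the list, -0.03, became 0.72 under median-ratio scaling, 0.10 without spermatogonia replicate 2, and 0.01 and 0.18 without spermatocyte replicate 1 and 3.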
